A study of Homo sapiens with 12 samples.

Results

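The 53 genes described here are the DNA replication and S phase genes: the proteins that mark and license replication origins, unwind and copy DNA, supply its building blocks and pack the copied strands, with E2F1 and E2F2. They were taken by symbol from a table of 12616 genes, and all 53 were listed. They were grouped into 10 roles. The libraries came from MeWo and SkMel28, established human cutaneous melanoma lines with a hairpin RNA that doxycycline (Dox) switches on and that targets MITF, a transcription factor of the melanocyte lineage. Each line was grown for 8 days at 0 or 1 µg/ml Dox with 3 libraries per line and dose, 12 in all, so both the control and the Dox libraries carry the hairpin construct. No Dox-treated line without the hairpin was compared, so the hairpin and the drug changed together. The labels give EMEM for MeWo and RPMI for SkMel28, both with 10% FBS at 10% CO2, and line and medium therefore cannot be told apart. The lines were a gift from another laboratory, and whether each was a single clone is not given in the sources used here.

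Before S phase, the origin recognition complex with CDC6 and CDT1 loads the MCM helicase onto DNA, and geminin (GMNN) blocks CDT1 once S phase has begun so that no origin fires again. CDC45 and the GINS complex then switch the helicase on, the polymerases copy both strands around the sliding clamp PCNA, and ribonucleotide reductase and thymidine kinase keep up the supply of deoxynucleotides. Many of these genes are transcribed late in G1 under E2F factors, so cultures with more cycling cells generally hold more of their mRNA.

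The libraries held 2568187 to 3714608 reads, and 1 read was worth 0.278 to 0.389 in normalised counts. RRM1 had the highest mean over the 12 libraries (145 normalised counts) and POLE2 the lowest (1.18), and POLE2 was the only member with a library at 0. 48 of the 53 members reached 5 normalised counts in at least 3 libraries, and ORC1, PRIM2, POLE2, UHRF1 and TIPIN did not. All 8 melanoma markers were listed, with summed normalised counts of 13080 to 13277 in the MeWo controls and 6706 to 8414 with Dox, and of 11490 to 12844 and 7657 to 8001 in SkMel28. None of 5 immune markers, 1 of 5 keratinocyte and epithelial markers (CDH1) and 2 of 5 fibroblast markers (DCN and LUM) were listed. The summed fibroblast markers were 41.5 to 47.8 and 9.85 to 19.2 in MeWo and 10.9 to 13.3 and 6.04 to 8.91 in SkMel28, and CDH1 was 44.9 to 61.9 and 19.5 to 30.8 in MeWo and 3.06 to 5.71 and 0.668 to 2.08 in SkMel28 (control and Dox in each case). Their part in the results below was not tested.

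MITF, the hairpin target, fell in both lines. Its normalised counts were 657, 663 and 708 in the MeWo controls and 451, 354 and 371 with Dox. In SkMel28 they were 861, 739 and 792 without Dox and 575, 578 and 552 with it. The groups did not overlap in either line. The change was -0.79 in MeWo (SE 0.11, adjusted p = 6.49e-05) and -0.49 in SkMel28 (SE 0.11, adjusted p = 0.00705), where only the fit without the mean-variance trend of 23 alternatives lost the call. All changes are differences of log2(normalised count + 1) and understate the change of low genes. Adjusted p-values are from limma across all 12616 genes, and genes under 0.05 are said to be called. These p-values measure the spread between these libraries.

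In SkMel28, the replication genes were lower with Dox almost throughout. Their summed normalised counts were 2626, 2652 and 2644 in the controls and 1998, 2014 and 1995 with Dox. The sums did not overlap and each group varied little. 52 of the 53 members had a fitted change below 0, against 49.1% of all genes, and the exception was PRIM2, a primase subunit, at 0.06. The median change of the members was -0.38, and that of all genes 0.00. 11 members (20.8%) fell and 0 rose, against 5.04% of all genes that fell and 5.88% that rose. At an unadjusted p under 0.05 there were 23 members (43.4%) and 23.7% of all genes. edgeR and DESeq2 on the recovered reads each called 14 lower and 0 higher, with 5.29% and 4.96% of all genes called lower. These 14 were the 11 called by limma with MCM5, CHAF1A and E2F1. The limma count was 3 without SkMel28 Dox replicate 2, where 2.81% of all genes were called lower. It was 5 without Dox replicate 1 (2.93% of all genes), control replicate 1 (3.28%) or control replicate 3 (2.93%). It was 6 without Dox replicate 3 (3.77%), 7 without control replicate 2 (3.53%) and 18 without MeWo Dox replicate 1 (7.95%). No member was called higher in any of these fits. All 3 Dox libraries lay below all 3 controls for 28 members (52.8%) and for 16.1% of all genes. Fewer cells in S phase and less replication RNA per cell cannot be told apart in these bulk libraries.

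**Figure D1:**
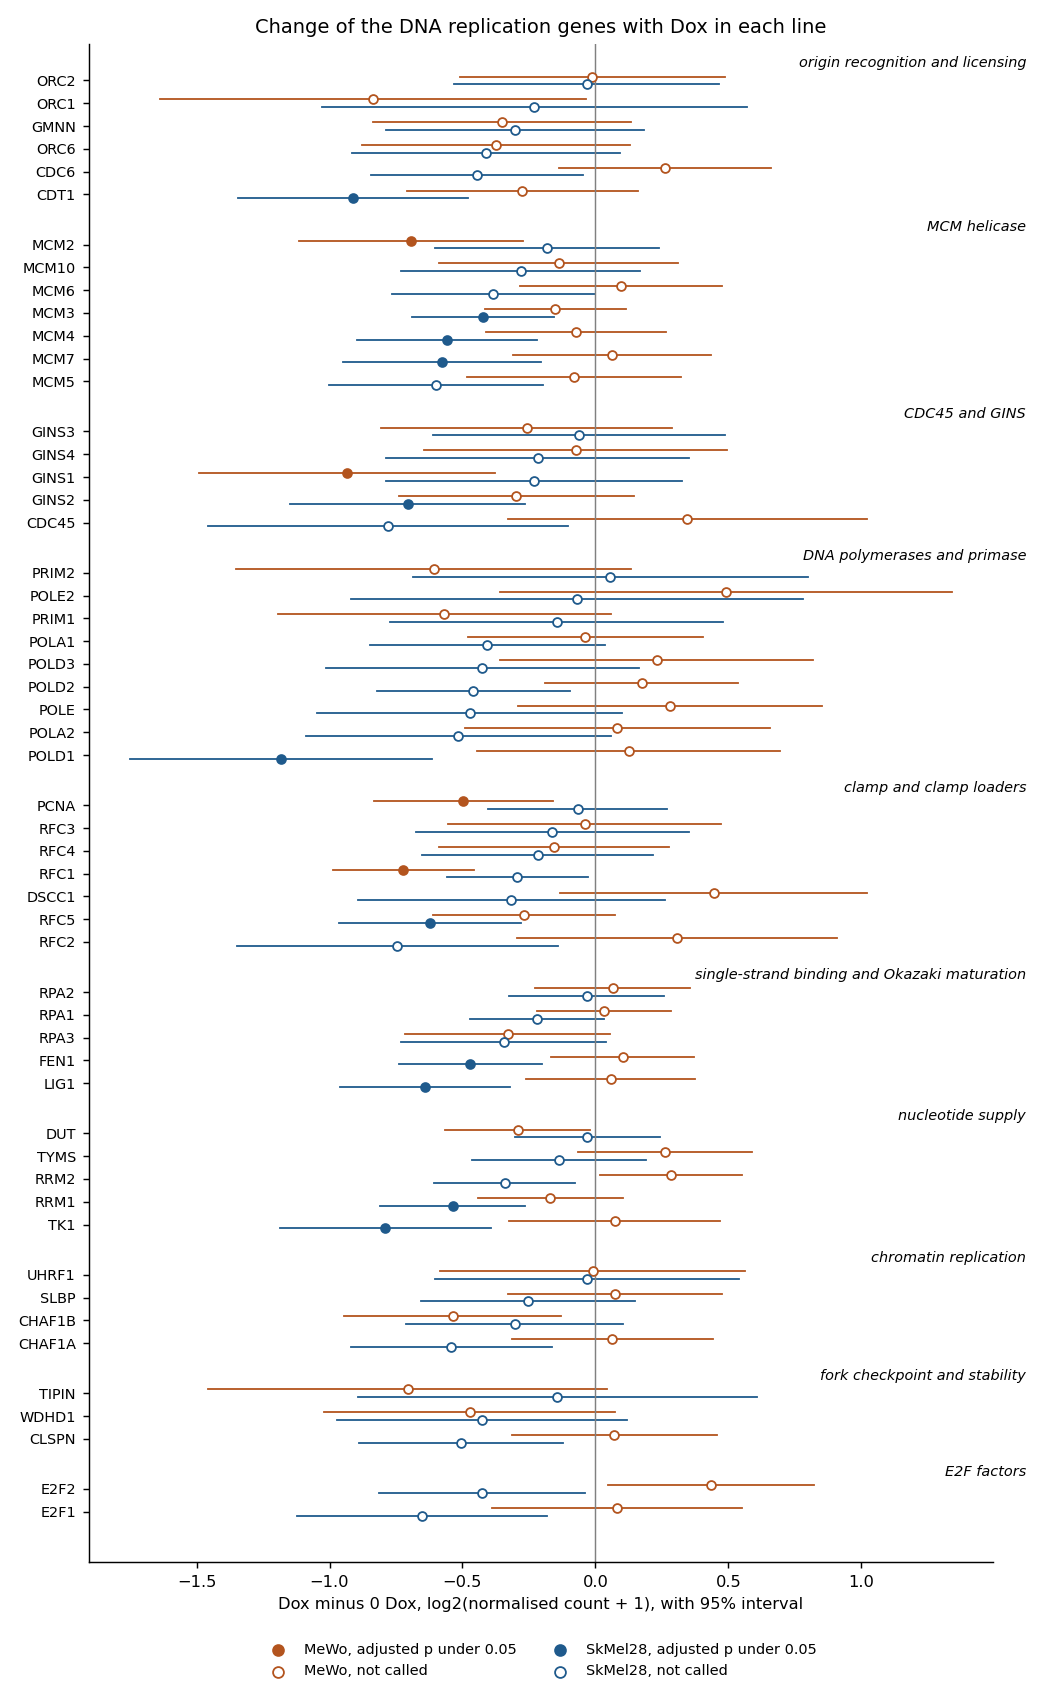
Change of each of the 53 members with Dox (x axis, log2 of normalised count + 1, Dox minus 0 Dox, with 95% limma intervals) in MeWo and SkMel28, grouped by role, with filled points for genes called at an adjusted p under 0.05. In SkMel28 52 of 53 points lie below 0 and 11 are filled, and in MeWo 29 lie below 0 and 4 are filled.

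Of the 6 origin recognition and licensing genes, 1 fell in SkMel28. CDT1, the loading factor that brings the helicase to origins (chr16:88803789-88809258, plus strand), had normalised counts of 36.8, 34.9 and 34.9 in the controls and 18.1, 18.0 and 19.0 with Dox. Every Dox library was well below every control, and both groups were tight. The change was -0.91 (SE 0.21, adjusted p = 0.00726). CDC6, its loading partner, lay below the controls in all 3 Dox libraries without being called (-0.44, adjusted p = 0.155). ORC1, ORC2, ORC6 and GMNN had changes between -0.41 and -0.03 with overlapping groups, none of them called.

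All 7 MCM genes had a fitted change below 0, and 3 of them fell. MCM7, a core subunit of the helicase ring (chr7:100092233-100101940, minus strand), had 167, 125 and 163 normalised counts without Dox and 91.7, 101 and 109 with Dox, a change of -0.58 (SE 0.18, adjusted p = 0.0449). MCM4, another ring subunit, went from 76.8, 90.1 and 81.6 to 51.1, 55.8 and 61.0, a change of -0.56 (SE 0.16, adjusted p = 0.0329). For MCM3 (chr6:52264014-52284881, minus strand) the controls were 129, 142 and 156 and the Dox libraries 111, 106 and 100, a change of -0.42 (SE 0.13, adjusted p = 0.0405). The groups were separate for each of these 3 subunits. They were also separate for MCM5, MCM6 and MCM10, which were not called (-0.60, -0.38 and -0.28, adjusted p = 0.0525, 0.206 and 0.47). MCM5 is a ring subunit, as is MCM6, and MCM10 helps to start unwinding. MCM2 was the one MCM gene whose groups overlapped (-0.18, adjusted p = 0.653).

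GINS2, which belongs to the complex that activates the helicase (chr16:85676198-85690073, minus strand), had 20.3, 19.99 and 24.1 normalised counts in the SkMel28 controls. With Dox it had 15.4, 10.0 and 13.3, all below the controls, a change of -0.71 (SE 0.21, adjusted p = 0.0387). The other 4 genes of this role were not called, and GINS1, GINS3 and GINS4 were at -0.23, -0.06 and -0.22. CDC45, the GINS partner in the active helicase, had 19.2, 27.3 and 26.1 without Dox and 8.61, 18.0 and 15.7 with it, separate groups with a wide spread (-0.78, SE 0.32, adjusted p = 0.142).

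POLD1, the catalytic subunit of DNA polymerase delta (chr19:50384204-50418018, plus strand), had the lowest fitted change of the 53 members. It had 18.1, 24.8 and 22.6 normalised counts in the SkMel28 controls and 9.50, 8.69 and 8.76 with Dox. The Dox values were close together and far below the controls, and the change was -1.18 (SE 0.27, adjusted p = 0.00796). The other 8 polymerase and primase genes were not called. Among them POLA1 and POLA2 (the polymerase alpha subunits) and POLD2 had all 3 Dox libraries below the controls, with changes of -0.41, -0.52 and -0.46. POLE, the catalytic subunit of polymerase epsilon, was at -0.47 with overlapping groups, and PRIM1, the primase subunit that makes the primer, at -0.15.

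Of the 7 clamp and clamp loader genes, RFC5 alone was called. This small subunit of the clamp loader (chr12:118013588-118033130, plus strand) had 48.2, 45.7 and 41.4 normalised counts without Dox and 27.0, 30.4 and 29.3 with Dox, a change of -0.62 (SE 0.16, adjusted p = 0.0194). RFC1 and RFC2, other subunits of the loader, had separate groups without a call (-0.29 and -0.75, adjusted p = 0.158 and 0.113). RFC3 and RFC4, small subunits of the loader, had overlapping groups at -0.16 and -0.22. PCNA, the clamp itself, had 91.3, 91.1 and 75.5 without Dox and 92.6, 83.2 and 70.7 with it. These overlapped, and its change of -0.07 (95% interval -0.40 to 0.27) was not called.

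The enzymes that finish the lagging strand were both lower. LIG1, the ligase that seals Okazaki fragments (chr19:48115445-48170603, minus strand), had 78.2, 93.3 and 91.6 normalised counts in the controls and 60.6, 48.5 and 58.9 with Dox, a change of -0.64 (SE 0.15, adjusted p = 0.0099). FEN1, the nuclease that trims their flaps (chr11:61792911-61797238, plus strand), went from 119, 102 and 116 to 79.6, 81.5 and 81.3, a change of -0.47 (SE 0.13, adjusted p = 0.0233). Neither gene's groups overlapped. The 3 subunits of RPA, which coats single-stranded DNA, were at -0.22 (RPA1), -0.03 (RPA2) and -0.34 (RPA3), none called.

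In nucleotide supply, 2 of 5 genes fell. RRM1, the large subunit of ribonucleotide reductase (chr11:4094707-4138932, plus strand), had 215, 236 and 215 normalised counts without Dox and 150, 165 and 143 with it, a change of -0.54 (SE 0.13, adjusted p = 0.0117). TK1, the S phase thymidine kinase (chr17:78174091-78187233, minus strand), had 25.1, 19.99 and 18.4 without Dox and 11.9, 9.69 and 13.9 with it, a change of -0.79 (SE 0.19, adjusted p = 0.0109). Both genes had separate groups. RRM2, the small reductase subunit, had separate groups too but was not called (-0.34, adjusted p = 0.0983). TYMS, which makes thymidylate, and DUT, which keeps uracil out of DNA, overlapped between the groups at -0.14 and -0.03.

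None of the 4 chromatin replication, 3 fork or 2 E2F genes was called by limma in SkMel28, with 1, 1 and 2 of them at an unadjusted p under 0.05. CHAF1A, the large subunit of the histone chaperone CAF-1, had 42.9, 43.8 and 44.8 normalised counts in the controls and 29.98, 30.4 and 29.01 with Dox, a change of -0.54 (SE 0.18, adjusted p = 0.0628). Its groups were separate and tight. The fit shares 1 spread per gene across the 4 groups of libraries. CLSPN, an adaptor of the fork checkpoint, was at -0.51 (adjusted p = 0.0901). E2F1 had 48.2, 32.7 and 55.2 without Dox and 26.7, 24.4 and 32.9 with Dox, overlapping groups with a change of -0.65 (adjusted p = 0.0729). E2F2 was at -0.43 (adjusted p = 0.162).

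The calls for CDT1 and POLD1 in SkMel28 were made under all 23 alternatives, which include leaving out each of the 12 libraries. When SkMel28 control replicate 1 or Dox replicate 2 was left out, TK1 was no longer called (-0.67 at both). LIG1 was not called without SkMel28 control replicate 3 or Dox replicate 2 (-0.61 and -0.54). For RRM1 the libraries were control replicate 2 and Dox replicates 1 and 3 (-0.52 to -0.49), and for RFC5 control and Dox replicates 1 and 2 (-0.66 to -0.57). FEN1 lost its call without control replicate 1 or 3 or any Dox library (-0.48 to -0.43), and MCM4 without any control or Dox replicate 1 or 2 (-0.61 to -0.50). GINS2, MCM3 and MCM7 each lost it without any of 8 libraries, MeWo controls included (-0.75 to -0.55, -0.46 to -0.35 and -0.63 to -0.50). Among the other alternatives, RRM1, FEN1, MCM3, MCM4 and MCM7 were not called without the mean-variance trend, FEN1, GINS2 and MCM3 with scaling to the spike-ins, and GINS2, MCM3 and MCM7 with the replicate block. GINS2 was not called with each line fitted alone, nor MCM7 with a pseudocount of 0.1.

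**Figure D2:**
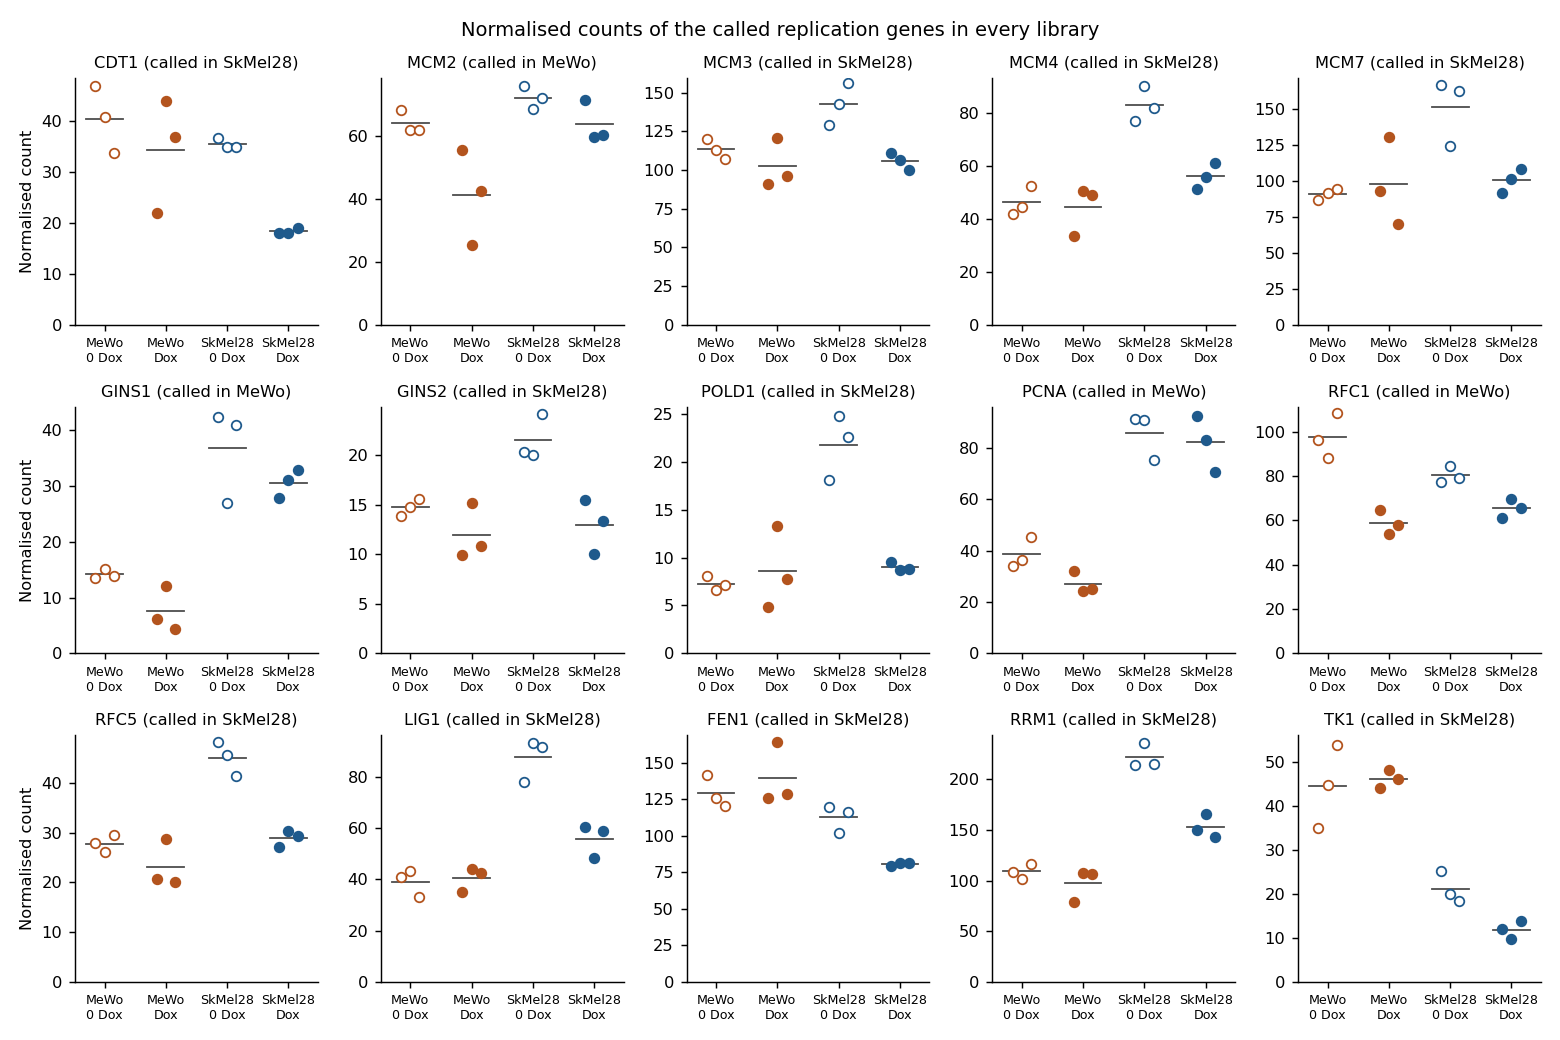
Normalised counts (y axis, from 0) of the 15 members called in MeWo or SkMel28, in each of the 12 libraries, with open points for 0 Dox, filled points for Dox and a bar at the group mean. CDT1 and POLD1 in SkMel28 show tight Dox groups far below the controls, and RFC1 shows this in MeWo.

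In MeWo the 53 genes showed no shift in their sums, and their fitted changes lay on both sides of 0. The summed normalised counts were 1782, 1758 and 1819 in the controls and 1599, 1894 and 1674 with Dox. The groups overlapped, since Dox replicate 2 was above every control and the other Dox libraries below. The median change was -0.04 (0.21 with scaling to the spike-ins), with that of all genes at 0.00, and 29 of 53 members had a fitted change below 0. As a deviation of log2(normalised count + 1) from each gene's mean over the 12 libraries, the members' median did separate. It was -0.18, -0.16 and -0.16 in the controls and -0.29, -0.22 and -0.37 with Dox. For all genes it was -0.02 to 0.01 in these libraries. 4 members (7.55%) fell and 0 rose, against 8.12% of all genes that fell and 8.58% that rose, so the share that fell was near the background. At an unadjusted p under 0.05 there were 9 members (17.0%), below the 30.6% of all genes. edgeR and DESeq2 each called 3 lower and 0 higher, with 7.17% and 6.19% of all genes called lower. All 3 Dox libraries lay below the controls for 6 members (11.3%), against 14.7% of all genes. Scaling to the spike-ins raised the median of all genes in MeWo to 0.22. Under it 0 members were called lower and 2 higher, E2F2 (0.69) and RRM2 (0.55), against 3.04% and 16.6% of all genes. Without MeWo Dox replicate 1, 5 members were called lower and 2 higher (POLD2 and RFC2) while 31.0% of all genes were called. Without Dox replicate 2 or 3, 2 members were called lower, with 5.79% and 4.99% of all genes. Without control replicate 2 or 3 it was 1 member, with 4.76% and 4.97% of all genes called lower.

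RFC1, the large subunit of the clamp loader (chr4:39287456-39366375, minus strand), had the smallest adjusted p of the members called in MeWo. It had 96.2, 88.2 and 108 normalised counts in the MeWo controls and 64.5, 53.8 and 57.9 with Dox. All Dox libraries were below all controls, and the change was -0.72 (SE 0.13, adjusted p = 0.000633). Scaling to the spike-ins, at -0.45, was the one of 23 alternatives that lost the call.

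PCNA (chr20:5114953-5126626, minus strand) had 34.0, 36.5 and 45.3 normalised counts without Dox and 31.9, 24.3 and 25.1 with it, a change of -0.50 (SE 0.16, adjusted p = 0.0413). MCM2, a subunit of the helicase ring (chr3:127598410-127622436, plus strand), went from 68.2, 61.8 and 61.9 to 55.5, 25.4 and 42.3, a change of -0.69 (SE 0.20, adjusted p = 0.0242). GINS1, another activator of the helicase (chr20:25391008-25452700, plus strand), went from 13.5, 15.2 and 13.9 to 6.06, 12.1 and 4.40, a change of -0.94 (SE 0.26, adjusted p = 0.0219). The groups were separate for all 3 genes. For MCM2 and GINS1 the Dox libraries were spread more widely than the controls, with replicate 2 lowest for MCM2 and highest for GINS1. PCNA was no longer called without MeWo control replicate 2 or 3, MeWo Dox replicate 2 or 3, SkMel28 control replicate 1 or SkMel28 Dox replicate 2 (-0.53 to -0.38). MCM2 lost its call without any MeWo control or without Dox replicate 2 (-0.72 to -0.39), and GINS1 without any MeWo control or Dox replicate 3 (-0.97 to -0.66). Scaling to the spike-ins lost all 3 calls, at -0.23, -0.43 and -0.69, as did fitting each line alone. PCNA and MCM2 were not called without the mean-variance trend, and PCNA was not called by edgeR, by DESeq2 or with the replicate block.

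The other roles in MeWo had no called member. CHAF1B, the middle subunit of CAF-1, and DUT had all 3 Dox libraries below the controls (-0.54 and -0.29, adjusted p = 0.0666 and 0.134). RRM2 and TYMS had all 3 above (0.28 and 0.26, adjusted p = 0.135 and 0.272). The 9 polymerase and primase genes ranged from -0.61 (PRIM2) to 0.49 (POLE2), with 0 called by limma and 0 at an unadjusted p under 0.05. None of the 15 called members was called in both lines. The share of all genes called in both was not counted, so this alone does not show a difference between the lines.

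The difference between the changes in the lines was tested as an interaction, the MeWo change minus the SkMel28 change. It was above 0 for 40 of 53 members, with a median of 0.37 beside -0.02 for all genes. Only 2 members (3.77%) were called, against 7.09% of all genes, and 17 (32.1%) were at an unadjusted p under 0.05, against 25.1%. POLD1 had 8.06, 6.60 and 7.13 normalised counts in the MeWo controls and 4.79, 13.3 and 7.79 with Dox, a change of 0.12 beside -1.18 in SkMel28. The MeWo groups overlapped while those of SkMel28 were apart, and the interaction was 1.31 (SE 0.38, adjusted p = 0.0474). RRM2 had 35.7, 42.3 and 41.8 in the MeWo controls and 48.2, 55.0 and 43.7 with Dox, and 197, 184 and 169 and then 140, 141 and 151 in SkMel28. Its groups were apart in opposite directions, neither change was called on its own, and the interaction was 0.63 (SE 0.18, adjusted p = 0.0431).

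Both interaction calls were fragile. The call for POLD1 was made without MeWo Dox replicate 1 and in none of the other 11 fits that left out 1 library (0.97 to 1.43), and that for RRM2 was lost in 10 of 12 (0.54 to 0.68), all but those without MeWo Dox replicate 1 or 3. Without MeWo Dox replicate 1, 18 members were called, 16 with the higher change in MeWo, while the share of all genes called rose to 24.7%, with 12.8% higher in MeWo. LIG1, TK1, FEN1 and E2F2 were close to the threshold (0.70, 0.86, 0.57 and 0.86, adjusted p = 0.0559, 0.0583, 0.0609 and 0.0536). For the remaining genes called in one line, including CDT1 (0.64, adjusted p = 0.182) and RFC1 (-0.43, adjusted p = 0.143), a difference between the lines was not shown.

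Without Dox, the replication genes were higher in SkMel28 than in MeWo. 27 of 53 members (50.9%) were called higher and 3 (5.66%) lower, against 26.6% and 24.8% of all genes, and the median difference was 0.52 beside 0.00 for all genes. RRM2 differed the most, at 35.7 to 42.3 normalised counts in MeWo and 169 to 197 in SkMel28, a difference of 2.17 (SE 0.13, adjusted p = 2.29e-10) and a 4.58-fold ratio of the means. GINS4 had 1.55 to 2.59 in MeWo and 11.1 to 14.3 in SkMel28 (2.13). E2F1 had 7.38 to 11.3 and 32.7 to 55.2 (2.07), and MCM5 26.5 to 28.8 and 105 to 123 (2.03). None of these 4 genes overlapped between the lines. CDC45 (1.82), POLA2 (1.53), POLD1 (1.46), DSCC1 (1.44), CLSPN (1.30) and GINS1 (1.29) followed, RFC4 was at 1.13, and DSCC1 is part of an alternative clamp loader that acts in sister chromatid cohesion.

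**Figure D3:**
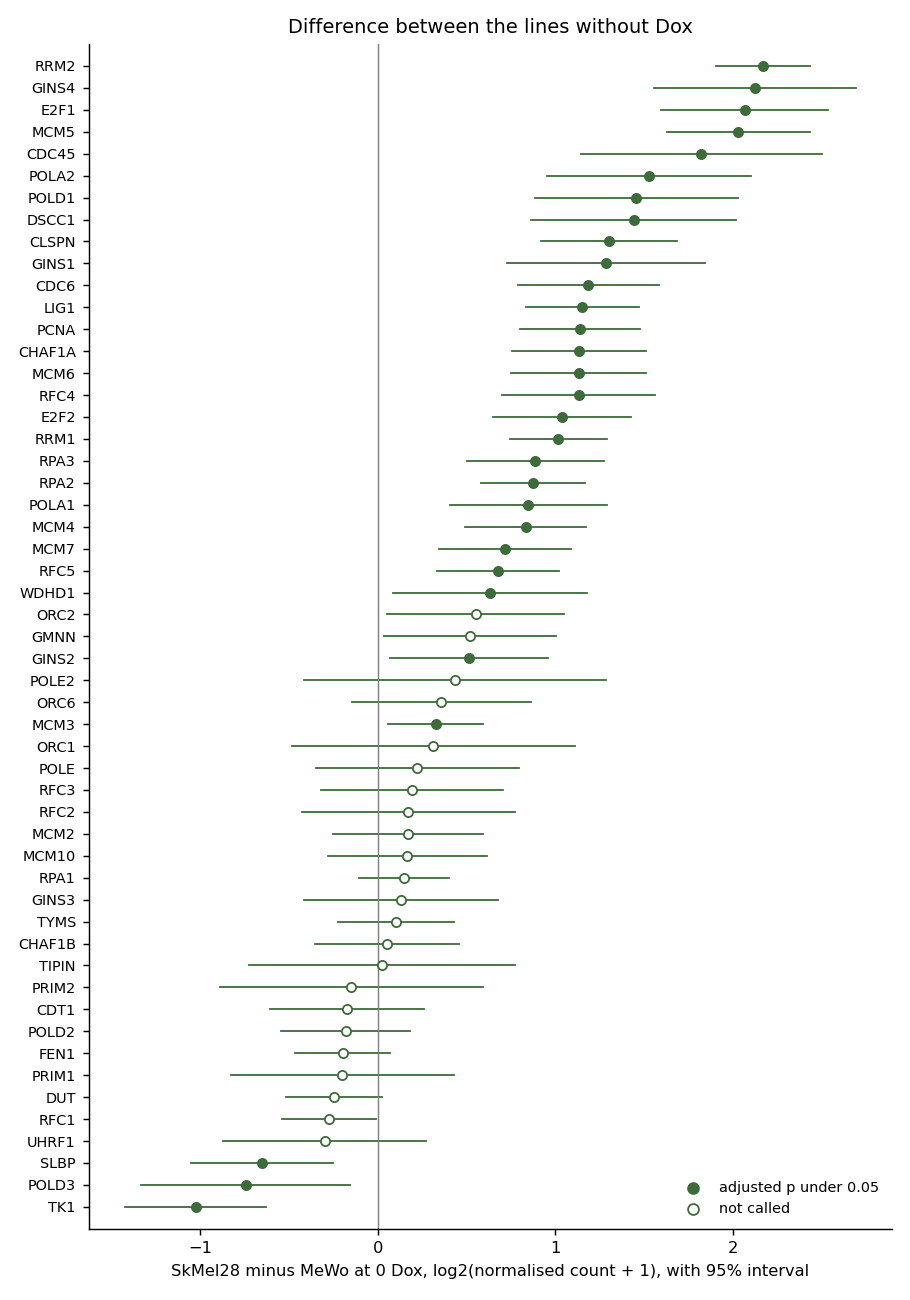
Difference between the lines without Dox (x axis, SkMel28 minus MeWo, log2 of normalised count + 1, with 95% limma intervals) for the 53 members, sorted by the difference, with filled points for genes called at an adjusted p under 0.05. RRM2 is at the top at 2.17 and TK1 at the bottom at -1.03, and 27 filled points lie above 0 and 3 below.

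The 3 genes lower in SkMel28 were TK1, POLD3 and SLBP. TK1 had 34.8, 44.7 and 53.8 normalised counts in MeWo and 25.1, 19.99 and 18.4 in SkMel28 (-1.03, adjusted p = 0.000208). POLD3, an accessory subunit of polymerase delta, was at -0.74 (adjusted p = 0.034), and SLBP, which binds the stem-loop of histone mRNA, at -0.65 (adjusted p = 0.00845). POLD3 and SLBP were not called with scaling to the spike-ins, at -0.60 and -0.51. POLD3 was also not called without MeWo control replicate 1 or 3 or SkMel28 control replicate 1 or 2 (-0.78 to -0.59). CDT1 (-0.17) and TYMS (0.10) were not called. Of the members called higher, GINS2 and MCM3 were not called without any of the 6 control libraries except SkMel28 replicate 1 for MCM3 (0.43 to 0.56 and 0.26 to 0.37), with other libraries lost as well. WDHD1 was not called without any control except SkMel28 replicate 2, or without SkMel28 Dox replicate 2 or 3 (0.52 to 0.74).

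The sums with Dox in SkMel28 (1995 to 2014) lay between those of its controls (2626 to 2652) and those of MeWo (1599 to 1894 over its 6 libraries). Further genes of the replication machinery and genes of mitosis were counted for comparison, from lists that are separate from the 53. Of 56 other replication genes listed, 8 fell in SkMel28 (14.3%) and 5 in MeWo (8.93%), against 5.04% and 8.12% of all genes, 0 rose by limma in either, and the medians were -0.10 and -0.09. At an unadjusted p under 0.05 there were 12 in each line (21.4%), against 23.7% and 30.6% of all genes. POLE4, an accessory subunit of polymerase epsilon, had means of 343 normalised counts without Dox and 158 with Dox in SkMel28 (-1.10, adjusted p = 4.45e-05), and CDC25A, the phosphatase that opens S phase, was at -0.996. RNASEH2A (-0.90), DTYMK (-0.71) and TOPBP1 (-0.71) were the next in SkMel28, and ORC5 (-0.79), WEE1 (-0.77) and TFDP1 (-0.68) were named in MeWo. These MeWo calls were lost with scaling to the spike-ins, with each line fitted alone and with 4, 3 and 9 of the 12 libraries left out in turn (-0.84 to -0.60, -0.71 to -0.65 and -0.74 to -0.48), and TFDP1 was not called by edgeR or DESeq2. RNASEH2A and TOPBP1 in SkMel28 lost theirs with 2 and 4 libraries left out in turn (-0.85 to -0.71 and -0.71 to -0.59).

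Of 39 mitosis genes listed, 17 fell in SkMel28 (43.6%) and 7 in MeWo (17.9%), against 5.04% and 8.12% of all genes, with medians of -0.51 and -0.22. By limma 0 were called higher in either line. At an unadjusted p under 0.05 there were 25 (64.1%) and 12 (30.8%), against 23.7% and 30.6% of all genes. The mitotic kinases AURKB (-0.93 and -1.02 in SkMel28 and MeWo) and AURKA (-0.86 and -1.01) fell in both lines. DLGAP5, CDC20 and TPX2 in SkMel28 (-0.97, -0.88 and -0.84) and ANLN, PTTG1 and BUB3 in MeWo (-0.78, -0.72 and -0.63) were the others named. Calls were lost with 4 of the 12 libraries left out in turn for DLGAP5 (-0.91 to -0.82), 5 for CDC20 (-0.96 to -0.70), 3 for ANLN (-0.79 to -0.60) and 5 for BUB3 (-0.65 to -0.45), and with scaling to the spike-ins or each line fitted alone for ANLN, PTTG1 and BUB3. AURKA in MeWo and DLGAP5 in SkMel28 were also not called with each line fitted alone, nor DLGAP5 with a pseudocount of 0.1. CDC20 and BUB3 were not called without the mean-variance trend. In MeWo the summed mitosis genes were 1443 to 1475 in the controls and 1029 to 1297 with Dox and did not overlap, unlike the summed replication genes. With scaling to the spike-ins the medians in MeWo turned to 0.03 for the mitosis genes (2 called lower) and 0.12 for the other replication genes (4 called higher), and those in SkMel28 stayed below 0. Under this scaling 3.04% of all genes in MeWo were called lower and 16.6% higher.

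**Figure D4:**
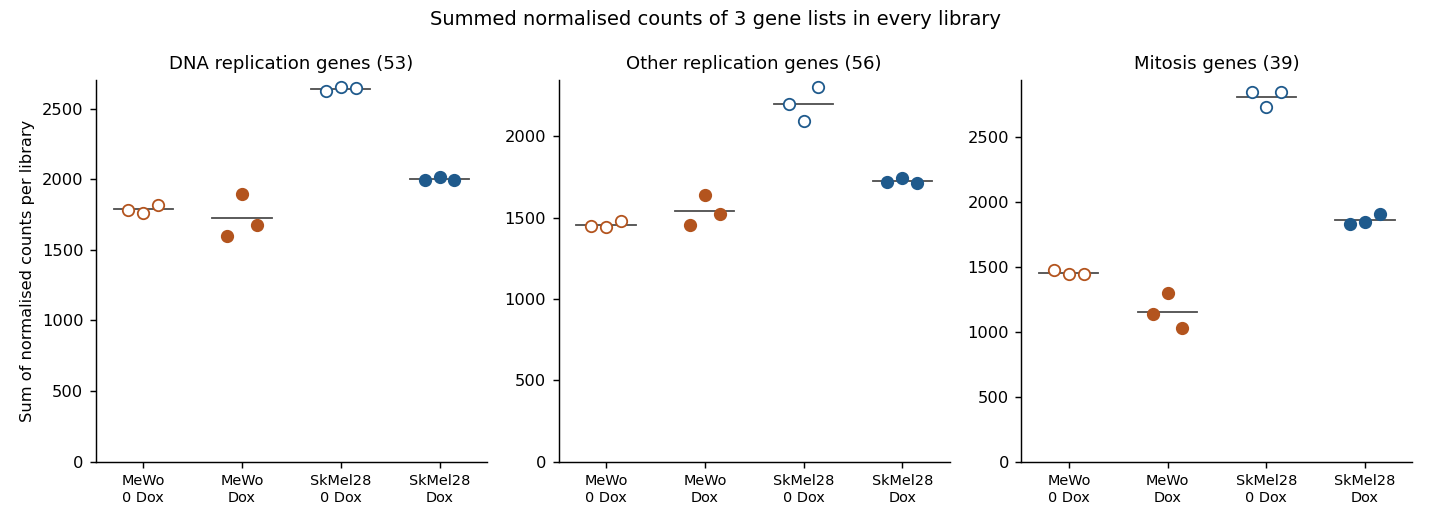
Summed normalised counts (y axis, from 0) of the 53 DNA replication genes, 56 other replication genes and 39 mitosis genes in each library, with open points for 0 Dox, filled points for Dox and a bar at the group mean. The replication sums separate with Dox in SkMel28 and overlap in MeWo, while the mitosis sums separate in both lines.

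Since 52 of the 53 members lay on the same side of 0 in SkMel28, their promoters were compared. RefSeq sequences on GRCh38.p14, from 250 bases before to 50 after the start, matched 46 of the 53 members. An E2F site, taken as TTTCCCGC, TTTGGCGC, TTTCGCGC or TTTGCCGC on either strand, was in 21 of the 46 (45.7%), in 5.50% of the 9527 listed genes matched and in 3.33% of 27305 promoters. The letters CCAAT were in 26 (56.5%), against 37.1% of the listed genes matched and 35.7% of all promoters, and GGGCGG in 34 (73.9%), against 71.0% and 44.6%. TTTGAA was in 1 (2.17%, against 9.39% and 15.4%). CACGTG, letters that MITF can bind, was in 6 (against 10.5% and 7.43%), namely GMNN, MCM2, MCM7, RPA1, FEN1 and CHAF1A. All motifs were searched on both strands, and E2F sites on opposite strands can overlap, as they do in MCM6. A match of letters is not a bound site. In 18 of the 21 members an E2F site match began within 60 bases before the start or after it.

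The 250 bases before the start are shown for 5 members with an E2F site. They were chosen for a RefSeq start at or close to that of the annotated gene and because they differ in response. CDT1 (chr16:88803539-88803788, plus strand) fell in SkMel28 and PCNA (chr20:5126623-5126872, minus strand) in MeWo. MCM6 (chr2:135876444-135876693, minus strand), TYMS (chr18:657403-657652, plus strand) and E2F1 (chr20:33686386-33686635, minus strand) were called in neither line. Each runs 5′ to 3′ on the strand of its gene, and capitals mark E2F site and CCAAT letters on either strand.
CDT1: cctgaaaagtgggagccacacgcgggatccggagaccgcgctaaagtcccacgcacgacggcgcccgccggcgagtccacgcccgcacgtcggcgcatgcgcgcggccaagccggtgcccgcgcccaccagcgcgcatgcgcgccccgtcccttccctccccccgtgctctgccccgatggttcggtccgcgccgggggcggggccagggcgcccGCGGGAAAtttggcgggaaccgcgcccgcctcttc
MCM6: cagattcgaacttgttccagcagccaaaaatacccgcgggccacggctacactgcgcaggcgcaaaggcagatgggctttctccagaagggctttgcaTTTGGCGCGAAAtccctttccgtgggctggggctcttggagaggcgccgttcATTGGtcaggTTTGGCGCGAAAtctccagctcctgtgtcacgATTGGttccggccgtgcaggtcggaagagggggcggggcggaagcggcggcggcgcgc
PCNA: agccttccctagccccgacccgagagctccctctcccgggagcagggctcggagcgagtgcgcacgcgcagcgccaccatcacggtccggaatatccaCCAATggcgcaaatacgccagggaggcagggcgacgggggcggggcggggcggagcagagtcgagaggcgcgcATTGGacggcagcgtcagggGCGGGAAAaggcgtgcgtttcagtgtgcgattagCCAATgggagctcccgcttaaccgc
TYMS: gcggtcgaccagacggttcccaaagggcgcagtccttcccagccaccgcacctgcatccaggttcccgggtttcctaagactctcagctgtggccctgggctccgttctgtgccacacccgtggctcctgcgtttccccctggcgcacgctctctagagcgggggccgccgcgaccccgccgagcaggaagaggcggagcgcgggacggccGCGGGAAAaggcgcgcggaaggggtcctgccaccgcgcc
E2F1: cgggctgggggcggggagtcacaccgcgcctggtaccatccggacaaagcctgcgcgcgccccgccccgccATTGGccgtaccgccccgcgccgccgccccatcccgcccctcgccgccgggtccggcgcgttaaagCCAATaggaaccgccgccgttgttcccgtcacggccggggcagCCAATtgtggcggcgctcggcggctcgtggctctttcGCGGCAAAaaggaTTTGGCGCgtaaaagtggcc

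**Figure D5:**
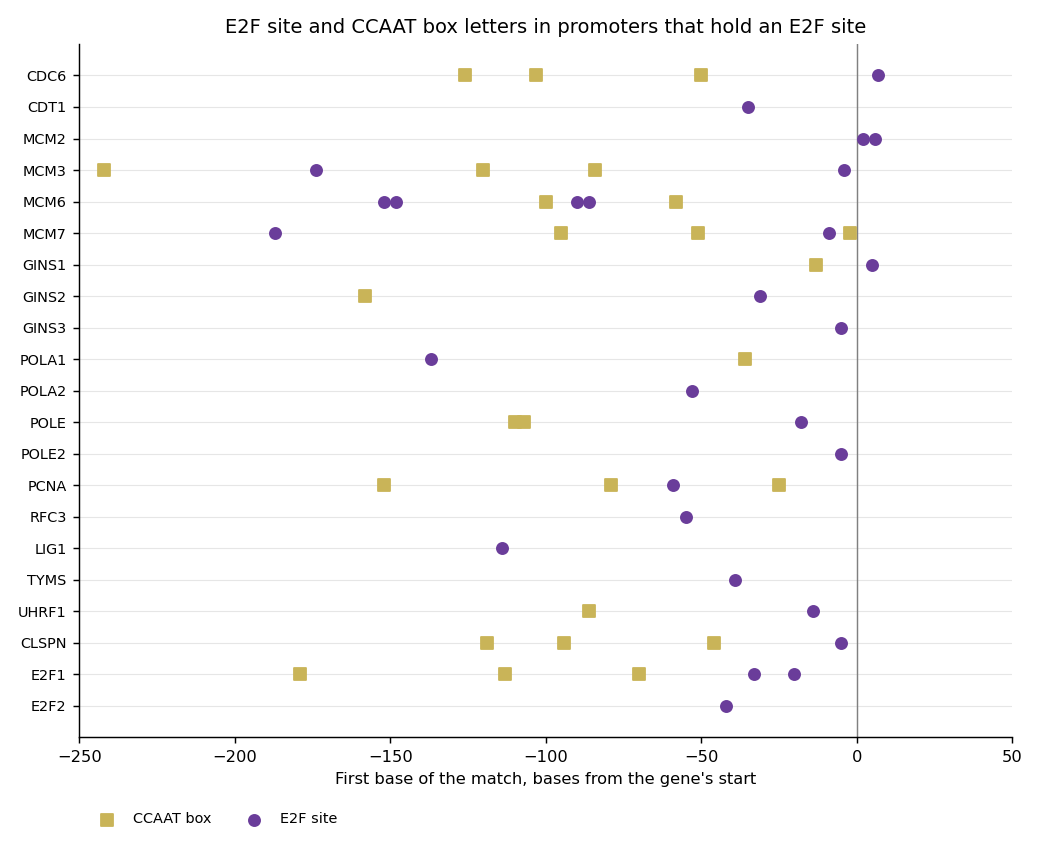
Position of E2F site letters (circles) and CCAAT letters (squares) in the 21 member promoters that hold an E2F site, as the distance in bases of the first base of each match from the gene's start (x axis, 0 at the start). Most circles lie within 60 bases of the start, in 18 of the 21 genes.

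The changes of members with and without an E2F site match are set side by side here. In SkMel28, 5 of 21 members with an E2F site match and 5 of 25 matched members without one fell, with medians of -0.42 and -0.30. In MeWo it was 3 of 21 and 1 of 25, with medians of 0.06 and -0.16. Among the 503 other listed genes with a match, 4.37% fell in SkMel28 with a median of -0.03, and among the 8978 others without one, 5.06% fell with a median of 0.01. In MeWo, 6.96% of these 503 genes and 8.13% of these 8978 fell. Without Dox, 13 of the 21 members with a match were called higher in SkMel28 (61.9%) and 8 of the 25 without (32.0%). Among the other listed genes it was 26.4% of those with a match and 26.5% of those without. These shares are a description with no test.

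The counting method and its use of strand are not given in the sources used here. 12 members overlap another listed gene, and for 8 that gene covers the 3′ end where these reads fall, GINS1 (with NINL), GINS2 (with GSE1), RFC5 (with WSB2) and FEN1 (with FADS2) among the called. 12 members have annotated pseudogenes, PCNA, FEN1 and RFC5 among the called, whose reads could be shared.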

How the data were processed

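Total RNA was sequenced from the 3′ end of transcripts (QuantSeq Forward) in 12 libraries. Per the labels' processing notes, the authors used FastQC 0.11.7, cutadapt 2.8, STAR 2.5.1b, hg38 and edgeR. The deposited table holds normalised counts, a signal per gene that the authors scaled by library size and a factor of 0.906 to 1.09 per library. These factors matched edgeR's TMM factors for the recovered reads. All values were whole multiples (within 0.01 reads) of the value of 1 read, so that the reads could be recovered, and 67 spike-ins took 5.69 to 8.55% of them. Every listed gene reached 1 in 3 or more libraries. limma 3.58.1 (R 4.3.3) was fitted to log2(normalised count + 1) of the 12616 genes with 4 group means and a mean-variance trend, all 12 libraries sharing one spread per gene, two-sided, with Benjamini-Hochberg adjustment per comparison. The script was tested on simulated data. edgeR 4.0.16 and DESeq2 1.42.0 on the recovered reads, other scalings, pseudocounts (0.1 and 5), a filter, a replicate block and each library left out were alternatives. The members and lists were chosen with earlier results of these data known. All members were named by role, and up to 5 called genes of each other list by size of change with a mean of at least 10. 2 genes of those lists were not analysed here. Coordinates are from GENCODE 44 and promoters from RefSeq, and 92.4% of symbols matched GENCODE.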

Additional observations from a re-analysis of the deposited data

Results flagged for a closer look

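Among the 148 genes of the members, the other replication genes and the mitosis genes, the test of the difference between the lines called 5 (3.38%), against 7.09% of all genes, each given as the change in MeWo minus the change in SkMel28 (log2, limma, adjusted over all genes). POLD1 was at 1.31 and RRM2 at 0.63, both described above. NASP, a histone chaperone among the other replication genes, was at 1.28 (SE 0.29), and POLE4 was at 0.96 (SE 0.20). BIRC5, the chromosomal passenger survivin among the mitosis genes, was at 0.67 (SE 0.19). NASP and POLE4 were called in all 12 fits that left out 1 library. BIRC5 was called only without MeWo Dox replicate 1, and the other 11 fits gave 0.54 to 0.70. Among the other alternatives, NASP and BIRC5 were not called without the mean-variance trend. BIRC5 was also not called with a pseudocount of 0.1 or the replicate block, and POLE4 kept its call in all of them. Groups of 3 libraries were not searched for single libraries that stand apart.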

How the results depend on the processing

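No called change of a member reversed in direction under any alternative. Of the members' counts of 4, 11, 2 and 30 calls (MeWo, SkMel28, interaction and the lines without Dox), the last stayed within 1.5 times throughout. The MeWo count was 2 with scaling to the spike-ins and 1 with each line fitted alone, and 1 to 7 with 1 library left out. In the same order, 19.7%, 6.44% and 10.2 to 31.0% of all genes were called. The SkMel28 count was 6 where no mean-variance trend was used, with 8.74% of all genes called. It was 3 to 18 with 1 library left out, with 6.21 to 16.2% of all genes. The interaction count was 6 with DESeq2, 13 with spike-in scaling, 1 and 4 with pseudocounts of 0.1 and 5, 0 without the trend and 0 to 18 with 1 library left out. Scaling to the spike-ins moved the members' median to 0.21 in MeWo and 0.71 for the interaction. It moved the median of all genes by 0.22 in MeWo, -0.08 in SkMel28, 0.30 for the interaction and 0.13 without Dox, and relative to those the members' medians were -0.01, -0.40, 0.42 and 0.53. Over all genes it gave 2097 higher and 383 lower in MeWo (1082 and 1025 before), 394 and 533 in SkMel28 (742 and 636), 1360 and 159 for the interaction (468 and 426) and 3630 and 2231 without Dox (3352 and 3133).

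Each line fitted alone gave 813 genes in MeWo against 2107, and the interaction gave 554 genes without the trend against 894. Leaving out 1 library gave 1281 to 3913 genes in MeWo, 784 to 2042 in SkMel28 and 449 to 3115 for the interaction. The cause of these moves was not tested. The labels do not say whether equal replicate numbers pair the libraries. In deviations from the group means, the 18 same-numbered pairs correlated between -0.305 and 0.399, and differently numbered pairs between -0.398 and 0.501. Such values cannot settle it, since deviations from a mean of 3 libraries depend on each other. With the replicate block the members called were 3 in MeWo, 8 in SkMel28, 0 for the interaction and 27 without Dox. Of all genes, 15.7% were called in MeWo, 9.44% in SkMel28 and 50.5% without Dox under this block. For the interaction it was 820 of the 12616 genes. The 27 members without Dox were 24 higher and 3 lower in SkMel28, against 26.1% and 24.4% of all genes.

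With 3 libraries a group, changes of low members such as ORC1 and POLE2 had 95% intervals wider than 1 on the log2 scale. So did some called changes, among them POLD1 in SkMel28 (-1.75 to -0.61) and GINS1 in MeWo (-1.49 to -0.38).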
